A study of Saccharomyces cerevisiae with 16 samples.

Results

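Base excision repair removes single damaged bases from DNA. A glycosylase cuts the damaged base off the sugar, an endonuclease opens the strand at the abasic site that is left, and a polymerase and a ligase fill and seal the gap. The 7 genes described here encode the glycosylases and abasic site endonucleases of budding yeast. OGG1 (YML060W) removes 8-oxoguanine, the common oxidised form of guanine. NTG1 (YAL015C) and NTG2 (YOL043C) are paralogues related to bacterial endonuclease III and act mainly on oxidised pyrimidines. UNG1 (YML021C) removes uracil, and MAG1 (YER142C) removes alkylated bases such as 3-methyladenine. APN1 (YKL114C) is the major abasic site endonuclease, and APN2 (YBL019W) is a further one.

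All 7 genes had an entry among the 6074 genes of the array, 1 entry each, and all 7 were among the 5147 genes tested. The genes were listed by function, and the list was chosen by the opposite log2 ratios of OGG1 and NTG1 in the mutants, known from earlier results of these data. All 7 are members by function, and no threshold was used. OGG1 and NTG1 are therefore described without a test, and the tests concern NTG2, UNG1, MAG1, APN1 and APN2.

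The series compared mutant with wild-type RNA on 2-colour arrays, 4 arrays for each mutant. The mutants were labelled set1htz1sir2 (triple mutant), set1htz1 (double mutant), H3K4A and set1. SET1 encodes the methyltransferase of lysine 4 of histone H3, which the label H3K4A names as changed to alanine. H2A.Z, a variant histone, is the product of HTZ1, and SIR2 encodes a deacetylase that acts in silent chromatin. The set1 mutation is shared by set1htz1sir2, set1htz1 and set1 and absent from the H3K4A label, and no mutant of HTZ1 or SIR2 alone was analysed here. Mutant and wild-type cultures were grown in pairs in YPD, a rich medium, with extra adenine and tryptophan, and harvested in exponential growth. In each mutant 2 arrays had the mutant in Cy5 and 2 in Cy3. The sources used here do not give alleles, strain background or the number of clones. The deposited description gives total RNA as the input for H3K4A and mRNA for the other mutants, while polyA RNA is the molecule on every label. A difference between H3K4A and another mutant therefore cannot be told apart from a difference in RNA input.

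The named genes were checked first. SET1 had a log2 ratio of mutant over wild type of -2.31 ± 0.22 in set1htz1sir2, -2.34 ± 0.45 in set1htz1, -0.14 ± 0.15 in H3K4A and -2.67 ± 0.42 in set1 (SD, n = 4 each). SIR2 was at -2.44 ± 0.28 in set1htz1sir2, and HTZ1 was at -2.94 ± 0.26 in set1htz1 and had no value in set1htz1sir2. Markers of mating type moved with the mutants. SAG1, the only one of 4 alpha-specific genes tested, was at -4.96 in set1htz1sir2, 0.36 in set1htz1, 0.59 in H3K4A and -0.01 in set1, and STE3, measured on the arrays of set1htz1sir2 but not tested, averaged -4.85 there. Of 5 a-specific genes 3 were tested. Their changes ran from -0.23 to 0.17 in set1htz1sir2, with none called, from 0.11 to 0.67 in set1htz1, where STE2 and BAR1 rose, and from -0.29 to -0.12 in H3K4A, with none called. In set1 they ran from -0.41 to -0.31, and BAR1 fell (limma adjusted p = 0.028). The part of mating type in the values given below was not tested. Arrays of set1 correlated at 0.729 and 0.791 within a dye orientation and from -0.262 to 0.0964 across orientations. Arrays of H3K4A correlated from -0.285 to 0.616, so values of these groups are given by array and by dye. Across all genes the median log2 change lay between -0.04 and -0.02 in every mutant.

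OGG1 and NTG1 lay on opposite sides of wild type in the mutants that lack SET1, and both lay near wild type in H3K4A. For OGG1 the log2 ratios were 0.38, 1.94, 1.24 and 1.56 on set1htz1sir2 arrays 1 to 4, and 1.63, 1.43 and 1.81 on set1htz1 arrays 1 to 3, with no value on array 4. They were -0.23, 0.44, 0.27 and 0.18 on the H3K4A arrays, and 0.96, 2.56, 1.14 and 2.12 on the set1 arrays. OGG1 was above wild type on every array of the mutants without SET1 that measured it. H3K4A overlapped these only through set1htz1sir2 array 1, whose 0.38 lay below the highest H3K4A value, and all its other values were lower. The fitted changes take out 1 dye effect shared by the mutants. They were 1.28 ± 0.18 in set1htz1sir2, 1.73 ± 0.21 in set1htz1, 0.16 ± 0.18 in H3K4A and 1.70 ± 0.18 in set1 (standard error). They correspond to 2.43, 3.32, 1.12 and 3.24 times the wild-type level in that order. The standard errors rest on a spread pooled over the mutants. The SD of the OGG1 ratios within a mutant was 0.66 in set1htz1sir2, 0.28 in H3K4A and 0.77 in set1. The mean of the 3 measured set1htz1 arrays was 1.62 ± 0.19 (SD, n = 3).

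**Figure D1:**
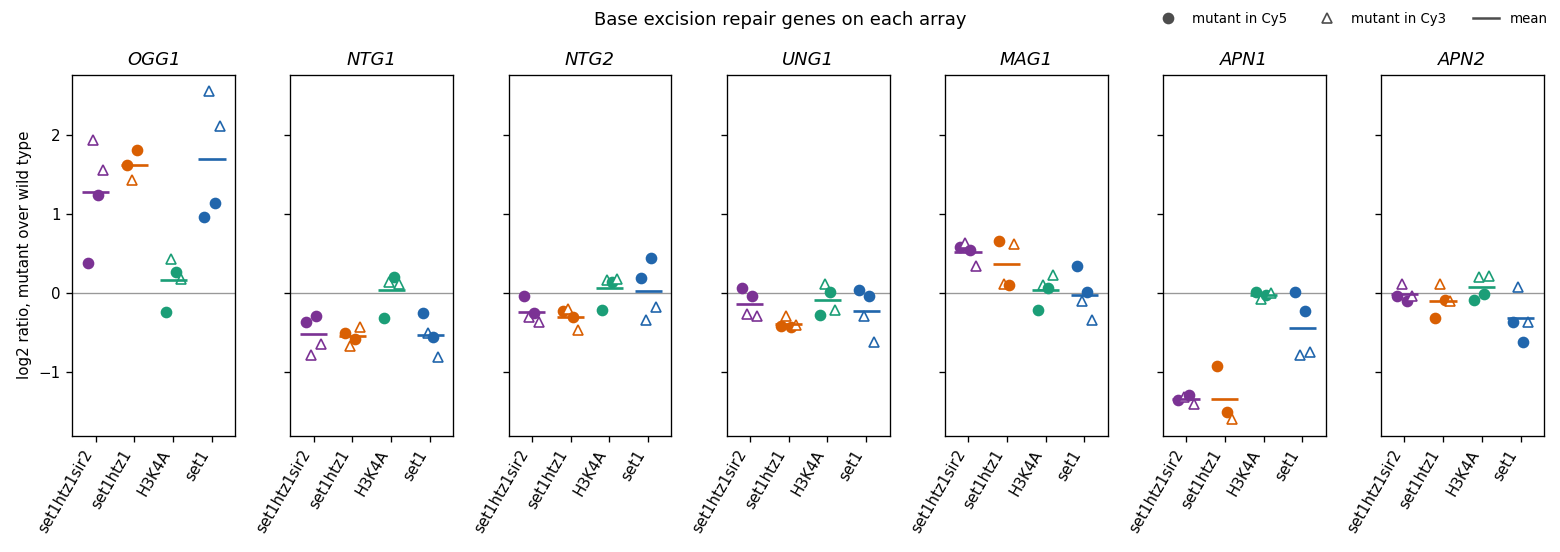
Log2 ratios of mutant over wild type for the 7 genes on each array, with 1 panel per gene and the 4 mutants along each axis. Filled circles are arrays with the mutant in Cy5, open triangles arrays with it in Cy3, and bars are means. OGG1 lies above 0 and NTG1 below 0 in the 3 mutants without SET1, and APN1 lies lowest in set1htz1sir2 and set1htz1.

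OGG1 had a larger dye effect than most genes. Fitted over the 4 mutants together, its ratio was lower with the mutant in Cy5 than with the mutant in Cy3, by 0.64 ± 0.19. Only 4.41% of all genes had a dye effect at least as large. Among the other listed genes the dye effects (Cy5 minus Cy3) ran from -0.23 for APN2 to 0.27 for APN1. In set1htz1sir2 OGG1 averaged 0.81 on the Cy5 arrays and 1.75 on the Cy3 arrays. In set1htz1 the order was the other way, with 1.72 on the Cy5 arrays and 1.43 on the only Cy3 array measured, and the shared dye term moves the set1htz1 value to 1.73, against the plain mean of 1.62. In H3K4A the averages were 0.02 and 0.31. In set1 it averaged 1.05 on the Cy5 arrays and 2.34 on the Cy3 arrays. In both orientations of all 3 mutants without SET1 the mean ratio was above 0. The order of the 3 mutants is not settled by these values: the fitted difference was -0.45 ± 0.28 between set1htz1sir2 and set1htz1, and 0.03 ± 0.28 between set1htz1 and set1. Leaving out 1 array moved the set1htz1 value within 1.53 to 2.14.

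Among all genes tested, OGG1 ranked 89 from the top in set1htz1sir2, 21 in set1htz1, 777 in H3K4A and 6 in set1. The SD of the changes of all genes was 0.536 in set1htz1sir2, 0.467 in set1htz1, 0.202 in H3K4A and 0.281 in set1.

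NTG1 was below wild type on all arrays of the 3 mutants without SET1. Its log2 ratios were -0.36, -0.79, -0.29 and -0.64 in set1htz1sir2, -0.51, -0.67, -0.58 and -0.43 in set1htz1, -0.31, 0.14, 0.20 and 0.12 in H3K4A, and -0.25, -0.51, -0.56 and -0.81 in set1. H3K4A overlapped the others through its array 1 alone. The fitted changes of the 3 mutants without SET1 were close to each other, at -0.52 ± 0.11 in set1htz1sir2, -0.55 ± 0.11 in set1htz1 and -0.53 ± 0.11 in set1, against 0.04 ± 0.11 in H3K4A. This left NTG1 at 69.7%, 68.4% and 69.1% of wild type in set1htz1sir2, set1htz1 and set1. The differences were 0.03 ± 0.15 between set1htz1sir2 and set1htz1 and -0.02 ± 0.15 between set1htz1 and set1.

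On the 11 arrays of mutants without SET1 that measured both genes, the log2 ratio of OGG1 exceeded that of NTG1 by 0.74 at least, by 2.14 at the median and by 3.07 at most. On the 4 H3K4A arrays the excess was 0.06 to 0.30, with a median of 0.07. OGG1 had the highest ratio of the 7 genes on 10 of 12 arrays of the mutants without SET1. On the other 2 MAG1 was highest, on set1htz1 array 4, where OGG1 had no value, and on set1htz1sir2 array 1.

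NTG2 lay near wild type in set1, where its paralogue NTG1 was at -0.53. Its log2 ratios in set1 were 0.19, -0.34, 0.44 and -0.18, above 0 on the Cy5 arrays and below 0 on the Cy3 arrays, with a fitted change of 0.03 ± 0.11. In set1htz1 NTG2 had ratios of -0.23, -0.20, -0.30 and -0.47 and fell by 0.30 ± 0.11 (limma adjusted p = 0.027). The fall is small, and it lost its call without set1htz1 array 1, 3 or 4 (adjusted p = 0.074, 0.11 and 0.10) and with quantile normalization (adjusted p = 0.075). In set1htz1sir2 the ratios were -0.03, -0.30, -0.25 and -0.36, all below 0, and the change of -0.24 ± 0.11 was not called (adjusted p = 0.076), but was with a dye term per group (0.031), on its own arrays (0.017), without set1 array 3 (0.0497) and without H3K4A array 1 (0.042). In H3K4A NTG2 had a fitted change of 0.07 ± 0.11. Probe sequences were not used here, so cross-hybridization between the paralogues cannot be judged.

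UNG1, the uracil glycosylase gene, fell in set1htz1. Its log2 ratios there were -0.42, -0.29, -0.43 and -0.40, a narrow band below 0, and the fitted change was -0.39 ± 0.10 (limma adjusted p = 0.0040). The ratios were 0.07, -0.27, -0.04 and -0.29 in set1htz1sir2, with a change of -0.13 ± 0.10, and 0.04, -0.29, -0.04 and -0.62 in set1, with a change of -0.23 ± 0.10 (adjusted p = 0.29 and 0.13). In these groups the Cy3 arrays gave the lower values. H3K4A values ran from -0.28 to 0.12. The difference between mutants was not called either, at -0.16 ± 0.14 between set1htz1 and set1 (adjusted p = 0.48), so a fall particular to set1htz1 is not shown.

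MAG1, the gene for the alkylation glycosylase, rose in the mutants without HTZ1. Its log2 ratios were 0.58, 0.64, 0.55 and 0.34 in set1htz1sir2, where it rose by 0.53 ± 0.12 (1.44 times wild type, limma adjusted p = 0.0010). They were 0.66, 0.11, 0.10 and 0.62 in set1htz1, where it rose by 0.37 ± 0.12 (1.29 times, adjusted p = 0.014). The set1htz1 arrays split into a high and a low pair that cuts across the dyes, and the call was lost without array 1 or array 4 (adjusted p = 0.11 for each) and with set1htz1 fitted on its own arrays (adjusted p = 0.059). In set1 the ratios of 0.34, -0.10, 0.01 and -0.34 scattered around 0, and in H3K4A they ran from -0.22 to 0.23. MAG1 was higher in set1htz1sir2 than in set1 by 0.55 ± 0.17 (adjusted p = 0.018). That difference lost its call with quantile normalization (0.44, adjusted p = 0.11), without set1 array 4 (0.45, adjusted p = 0.073) and without set1htz1sir2 array 2 (0.50, adjusted p = 0.057). Between set1htz1 and set1 the difference of 0.40 ± 0.17 was not called (adjusted p = 0.10).

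APN1, the main abasic site endonuclease gene, fell most of the 5 tested genes. Its log2 ratios were -1.36, -1.32, -1.29 and -1.40 on the set1htz1sir2 arrays, and -0.92, -1.51 and -1.60 on set1htz1 arrays 1, 3 and 4, with no value on array 2. They were 0.02, -0.07, -0.03 and -0.0014 in H3K4A and 0.01, -0.79, -0.23 and -0.74 in set1. Every value of the triple and double mutants lay below every value of H3K4A and set1. The fitted fall was 1.34 ± 0.11 in set1htz1sir2 (limma adjusted p = 2.5e-08) and 1.39 ± 0.13 in set1htz1 (adjusted p = 1.8e-07, from 3 arrays), which left 39.4% and 38.2% of the wild-type level. APN1 ranked 62 from the bottom of all genes tested in set1htz1sir2 and 10 in set1htz1.

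In set1 APN1 fell by 0.44 ± 0.11 (limma adjusted p = 0.0096), to 73.8% of wild type. The set1 values differed by dye, with a mean of -0.11 on the Cy5 arrays and -0.77 on the Cy3 arrays, and the call was lost without array 2 (adjusted p = 0.055) or array 4 (adjusted p = 0.069). In H3K4A, where the 4 values ran from -0.07 to 0.02, the change was -0.02 ± 0.11. APN1 was lower in set1htz1 than in set1 by 0.95 ± 0.17 (fitted difference -0.95, adjusted p = 0.00094), and lower in set1htz1sir2 than in set1 (-0.91 ± 0.15, adjusted p = 0.00035). Between set1htz1sir2 and set1htz1 it differed by 0.05 ± 0.17 (adjusted p = 0.90), a difference within its error. With each of the alternative settings and with each array left out, the falls in set1htz1sir2 and set1htz1 and the differences from set1 kept their calls, and the change in set1htz1sir2 stayed between -1.40 and -1.03. APN1 had the lowest ratio of the 7 genes on 8 of 12 arrays of the mutants without SET1.

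APN2, the other abasic site endonuclease gene, was near wild type where APN1 was lowest. Its log2 ratios were -0.03, 0.12, -0.10 and -0.03 in set1htz1sir2 and -0.32, 0.11, -0.09 and -0.10 in set1htz1, with fitted changes of -0.01 ± 0.09 and -0.10 ± 0.09 that were not called. In set1 they were -0.36, 0.08, -0.62 and -0.36, and APN2 fell by 0.32 ± 0.09 (limma adjusted p = 0.018). Here the Cy5 arrays were the lower ones, with a mean of -0.49 against -0.14 on the Cy3 arrays, the reverse of APN1. The call in set1 was lost without array 3 or 4 (adjusted p = 0.10 and 0.12) and with set1 fitted on its own arrays (adjusted p = 0.089). H3K4A exceeded set1 by 0.40 ± 0.12, which was not called (adjusted p = 0.061), but was with quantile normalization (adjusted p = 0.040) and without set1 array 2 (adjusted p = 0.018).

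**Figure D2:**
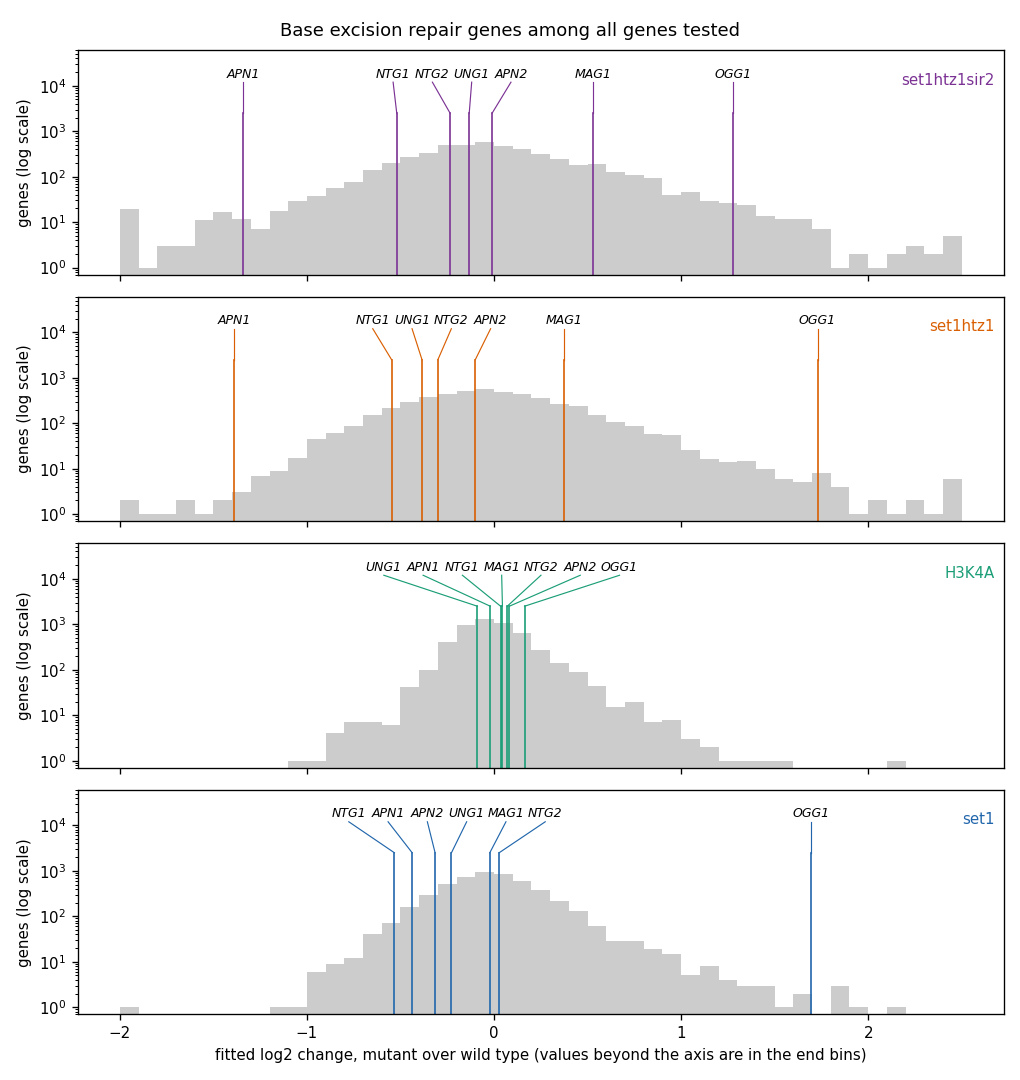
Distribution of the fitted log2 changes of all 5147 genes tested, 1 panel per mutant, with the number of genes on a log axis and vertical lines at the 7 genes. OGG1 lies in the upper tail in the 3 mutants without SET1, APN1 in the lower tail in set1htz1sir2 and set1htz1, and all 7 lie between -0.09 and 0.16 in H3K4A.

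Counted over the 5 tested genes, 1 rose and 1 fell in set1htz1sir2, where 50.4% of all genes were called. In set1htz1, 1 rose and 3 fell, where 47.5% of all genes were called. In H3K4A 0 of 5 were called by limma, and 0 had an unadjusted p under 0.05, where 4.2% of all genes were called. In set1 0 rose and 2 fell, where 18.8% of all genes were called. With about every other gene called in the triple and double mutants, the counts there are no result about these genes. The median change of the 5 genes was -0.13 in set1htz1sir2, -0.30 in set1htz1, 0.05 in H3K4A and -0.23 in set1, against medians of all genes of -0.03, -0.04, -0.02 and -0.02.

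Between mutants, 1 of the 5 genes was higher and 1 lower in set1htz1sir2 than in set1, where 28.7% of all genes were called, 14.6% higher and 14.1% lower. In set1htz1 1 gene was lower and 0 were higher than in set1, where 19.3% of all genes were called, 9.03% higher and 10.3% lower. None of the 5 was called by limma between set1htz1sir2 and set1htz1 (0 at an unadjusted p under 0.05), where 12.6% of all genes were called, 7.25% higher and 5.4% lower. Between H3K4A and set1 0 were called (2 at an unadjusted p under 0.05, APN1 and APN2), where 7.5% of all genes were called, 4.1% higher and 3.4% lower. These comparisons share groups of arrays and are not independent of each other.

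The genes beside the repair genes on the chromosome were set against them, 13 neighbours with enough values (PRR1 beside APN1 had too few). In set1htz1sir2 1 neighbour rose and 2 fell, where 50.4% of all genes were called. In set1htz1 0 rose and 2 fell, where 47.5% of all genes were called. In H3K4A limma called 0 (1 at an unadjusted p under 0.05), where 4.2% of all genes were called, and in set1 1 rose and 1 fell, where 18.8% were called. OGG1 lies on chromosome XIII and starts back to back with PIF1, a DNA helicase gene. PIF1 had fitted changes of -0.33 ± 0.11 in set1htz1sir2, where it fell (limma adjusted p = 0.022), -0.21 in set1htz1, -0.10 in H3K4A and 0.18 in set1. The call of PIF1 was lost in 5 alternatives and kept in 20, with an adjusted p of up to 0.092, the highest without set1htz1sir2 array 2. NTE1, which lies on the other side of OGG1, had changes between -0.22 and 0.04, with no call. PIF1 and NTE1 lay within 0.33 of wild type in all 4 mutants. OGG1 ranged from 0.16 in H3K4A to 1.73 in set1htz1. Its values were known when the list was chosen, so its distance from the neighbours is a description. The neighbours of NTG1 on chromosome I, TPD3 (a protein phosphatase 2A subunit gene) and SYN8 (a SNARE gene), had changes between -0.21 and 0.17 with no call.

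**Figure D3:**
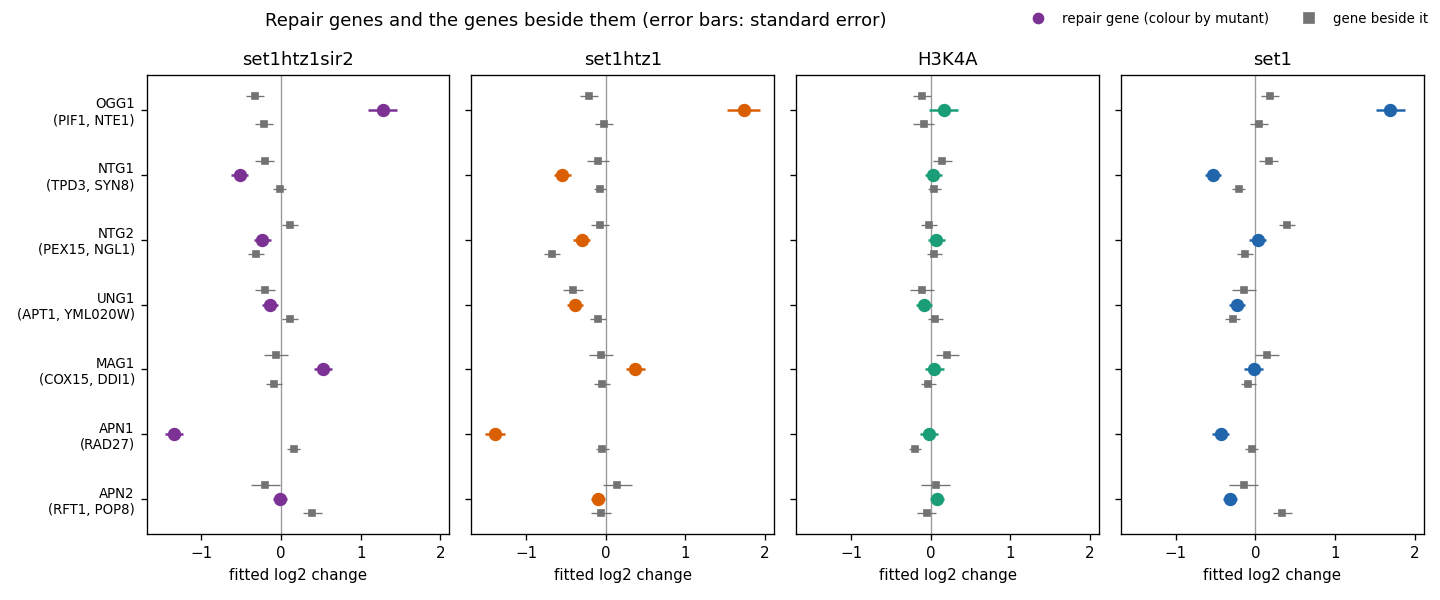
Fitted log2 changes (horizontal axis, with standard errors) of the 7 repair genes, as coloured circles, and of the genes beside each on the chromosome, as grey squares named in parentheses, with 1 panel per mutant. OGG1 at 1.28 and 1.73 lies away from its neighbours in set1htz1sir2 and set1htz1. APN1 at -1.34 and -1.39 lies away from RAD27, the only neighbour shown for it.

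MAG1 on chromosome V starts back to back with DDI1, a DNA damage-inducible gene. DDI1 had changes of -0.09 ± 0.10 in set1htz1sir2 and -0.05 ± 0.10 in set1htz1, where MAG1 rose, and was not called. APN1 on chromosome XI lies beside RAD27 on the same strand, the flap endonuclease gene of the same pathway. RAD27 had changes of 0.16 ± 0.08 in set1htz1sir2, -0.05 ± 0.08 in set1htz1, -0.20 ± 0.08 in H3K4A and -0.05 ± 0.08 in set1, with no call. NGL1, which starts back to back with NTG2, fell in set1htz1sir2 (-0.32) and set1htz1 (-0.68), with NTG2 at -0.24 and -0.30. Of the genes beside UNG1, APT1 fell in set1htz1 (-0.42), as UNG1 did, and YML020W was at -0.29 in set1, a call (limma adjusted p = 0.047) that was lost in 15 alternatives and kept in 10, with an adjusted p of up to 0.20. PEX15 beside NTG2 rose in set1 (0.40), and POP8 beside APN2 rose in set1htz1sir2 (0.39), where NTG2 and APN2 were at 0.03 and -0.01.

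Likeness to OGG1 and NTG1 was measured by the root mean square difference of log2 ratios over the arrays. Over the 15 arrays that measured OGG1, the nearest of 3720 genes was LOH1 at 0.54, followed by RPL32 (0.60), YNL203C (0.61), YNR064C (0.65) and UBC5 (0.66), against a median of 1.47 for all genes. LOH1 averaged 1.71 in set1htz1sir2, 2.02 in set1htz1, 0.38 in H3K4A and 1.35 in set1. RPL32 encodes a ribosomal protein and UBC5 a ubiquitin-conjugating enzyme. Over all 16 arrays the nearest of 3664 genes to NTG1 was CUE3 at 0.16, followed by CCE1 (0.18), SAW1 (0.19), NHP10 (0.20) and USE1 (0.20), against a median of 0.57. CUE3 averaged -0.59 in set1htz1sir2, -0.56 in set1htz1, -0.07 in H3K4A and -0.44 in set1. CCE1 encodes a mitochondrial cruciform-cutting endonuclease, and NHP10 a subunit of the INO80 chromatin remodeller. These arrays share dyes and groups, and the distances are a description.

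The later steps of base excision repair, which fill, trim and seal the gap, were followed in 21 genes, of which 19 were tested. In set1htz1sir2 8 fell and 0 rose, with a median of -0.24, where 26.3% of all genes fell. In set1htz1 8 fell and 1 rose, with a median of -0.24, where also 26.3% fell. The rise was that of POL3 (0.40, limma adjusted p = 0.047), which lost its call in 13 alternatives and kept it in 12. In set1 3 fell and 0 rose, with a median of -0.05, where 9.79% fell. In H3K4A, where 4.2% of all genes were called, limma called 0 (5 at an unadjusted p under 0.05). The median there was -0.13. With quantile normalization 4 fell and 1 rose in H3K4A, and 1 fell without H3K4A array 2.

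Among these genes, RFC2, a subunit of the clamp loader, fell to -0.82 in set1htz1sir2 and -0.45 in set1htz1. POL4, the gene for a family X gap-filling polymerase, fell in all 3 mutants without SET1, with changes of -0.75, -0.53 and -0.27 in set1htz1sir2, set1htz1 and set1 (limma adjusted p = 1.3e-06, 0.00032 and 0.037). In set1 the call of POL4 was lost in 7 alternatives and kept in 18, with an adjusted p of up to 0.12, among them those without set1 array 1, 2 or 4. TPP1, which encodes a DNA 3′ phosphatase, fell in the same mutants, with -0.34, -0.63 and -0.47, and lost its call in set1htz1sir2 with quantile normalization and without array 3 or 4. RFC1, the large clamp loader subunit gene, fell in set1htz1sir2 (-0.61) and set1htz1 (-0.50). In set1htz1 RFC2 lost its call without array 1 or 3, and RFC1 without array 2 or 4 and with quantile normalization. RFC3, another clamp loader gene, was at -0.48 in set1htz1sir2, -0.61 in set1htz1 and -0.42 in set1, called in each. The ligase gene CDC9 and the clamp gene POL30 lay at -0.05 and 0.00 in set1htz1sir2, 0.04 and -0.24 in set1htz1, -0.30 and -0.13 in H3K4A, and -0.07 and 0.02 in set1, with no call.

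**Figure D4:**
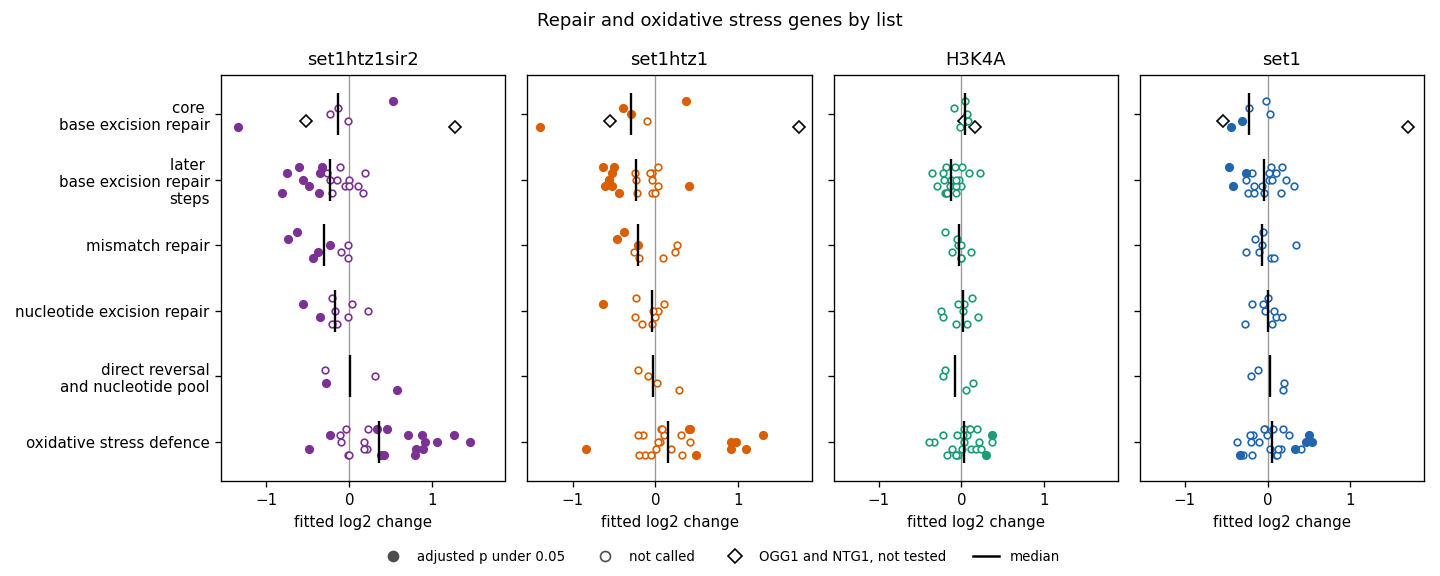
Fitted log2 changes (horizontal axis) of the tested genes of 6 lists, with 1 panel per mutant. Filled circles have an adjusted p under 0.05, open circles do not, open diamonds are OGG1 and NTG1, which carry no test, and bars are list medians. The oxidative stress list has its highest median, 0.36, in set1htz1sir2.

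Other repair lists gave a setting for these values. Mismatch repair, which also acts at 8-oxoguanine mispairs, had 5 of 8 genes lower in set1htz1sir2 and 3 of 8 in set1htz1, with none higher, where 26.3% of all genes fell in each. The 5 became 2 without set1htz1sir2 array 3 and 2 with quantile normalization. PMS1 was at -0.63 in set1htz1sir2 and -0.38 in set1htz1, and fell in both. MSH3 fell in set1htz1sir2, with -0.38, and was not called in these 2 alternatives. In H3K4A and set1 limma called 0 of the 8 (1 and 2 at an unadjusted p under 0.05). Among all genes 4.2% and 18.8% were called there. Of 9 tested nucleotide excision repair genes 2 fell in set1htz1sir2 and 1 in set1htz1, RAD3 in each (-0.56 and -0.63). Among all genes 26.3% fell in each mutant. The other fall in set1htz1sir2 was RAD10 (-0.35). RAD10 and RAD1 also belong to the list of later base excision repair steps and are counted there too. Without set1htz1sir2 array 3 the 2 falls became 1, and without set1htz1 array 1 the 1 fall became 2. Among nucleotide excision repair genes limma called 0 in H3K4A and 0 in set1 (1 at an unadjusted p under 0.05 in each). Of all genes 4.2% and 18.8% were called in these mutants. Of the 4 genes for direct reversal and the nucleotide pool, the alkylguanine methyltransferase gene MGT1 rose in set1htz1sir2 (0.58, adjusted p = 0.0027) and the photolyase gene PHR1 fell there (-0.29), a call lost with quantile normalization and without set1htz1sir2 array 3. DUT1 and PCD1, which clear uracil and oxidised guanine from the nucleotide pool, were at 0.31 and -0.29 in set1htz1sir2 and were not called.

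Genes of the oxidative stress defence were included because OGG1 and NTG1 repair oxidised bases. Of 24 genes 13 rose and 2 fell in set1htz1sir2, 8 rose and 1 fell in set1htz1, 2 rose and 0 fell in H3K4A, and 4 rose and 1 fell in set1. The 2 falls in set1htz1sir2 became 1 without set1htz1sir2 array 1, 3 or 4. The 4 rises in set1 became 2 without set1 array 2 or 4, and the 1 fall became 0 without set1 array 2, 3 or 4 and 3 without H3K4A array 1. Among all genes 24.1%, 21.2%, 3.59% and 9.05% rose, and 26.3%, 26.3%, 0.602% and 9.79% fell, in the same order of mutants. HYR1, a peroxide sensor gene, was at 1.46 in set1htz1sir2, 0.97 in set1htz1, 0.04 in H3K4A and 0.54 in set1, and was called in all but H3K4A. PRX1, the mitochondrial peroxiredoxin gene, rose by 1.26 in set1htz1sir2, 1.30 in set1htz1 and 0.50 in set1. In H3K4A, with 3 arrays measured, PRX1 was at 0.37 (limma adjusted p = 0.041), a call lost in 14 alternatives and kept in 11, with an adjusted p of up to 0.43. AHP1, a thioredoxin peroxidase gene, was at 1.06, 0.91, -0.33 and 0.47 in that order, with no call in H3K4A, and its call in set1 was lost without any 1 of the 4 set1 arrays and with quantile normalization. TSA2, a further peroxiredoxin gene, rose in set1htz1sir2 (0.81) and set1htz1 (1.09). GPX2 fell in set1htz1sir2 (-0.49) and set1htz1 (-0.84). The catalase gene CTT1 was not called in any of the 4 mutants, and its changes ran from -0.37 to 0.36. The 2 rises in H3K4A were PRX1 and GPX1. With 1 array of any group left out, that count was between 0 and 2, and it was 0 without H3K4A array 2 or 3 or set1htz1sir2 array 2. It was also 0 with H3K4A fitted on its own arrays, and 3 with quantile normalization.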

How the data were processed

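Per the deposited description, the authors scanned the arrays with GenePix, discarded spots of poor regression fit or weak signal, and scaled the ratios to each sample's total signal. Each deposited value is a log2 ratio, mutant over wild type. Neither a genome build nor probe sequences are in the sources used here. Entries of one ORF, with or without the prefix z, were averaged (6282 entries, 6074 genes). RefSeq's R64 gene table gave names and gene order. All 16 arrays entered 1 fit in limma 3.58.1 (R 4.3.3), with 4 group means and 1 shared dye term, then empirical Bayes moderation. Genes needed values on at least 3 of 4 arrays per group. A gene was called at an adjusted p under 0.05 (Benjamini-Hochberg, over all 5147 genes). Unless marked SD, a value after ± is limma's standard error. The replicates are independent cultures by the description, and their number limits precision. In bulk RNA, fewer cells with a transcript and less of it per cell cannot be told apart. The fit was tested on simulated data with changes in set1 only, independent noise and the shared dye effect. Dye differences between groups were not simulated. Members, lists, tests and alternatives were chosen with earlier results of these data known. Named are the 7 genes, their neighbours, the 5 nearest patterns of OGG1 and NTG1, and from each list the called genes of largest change, at most 4 per list. Some genes that this rule selects are not reported here. CDC9, POL30, DUT1, PCD1, CTT1, RFC3, GPX1 and GPX2 were named outside this rule, after their values were seen. Promoter motifs and sequences were not analysed here. Alternatives were no dye term, a dye term per group, median centring, quantile normalization, at least 2 arrays per group, unprefixed entries only, a replicate block, robust moderation, groups fitted alone, and each array left out.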

Additional observations from a re-analysis of the deposited data

Results flagged for a closer look

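Dixon's test was applied to 26 sets of 4 arrays (7 genes in 4 mutants, less the 2 with a missing value). In 2 sets a value lay far from the other 3. For a single set chance alone gives about 1 in 20. The genes share arrays, so the sets are not independent and that rate cannot judge the count. The sets of OGG1 and NTG1 are included as a description. Both were on H3K4A array 1, with NTG1 at -0.31 and NTG2 at -0.22 against positive values on the other H3K4A arrays. The same array also gave the lowest H3K4A value for OGG1 (-0.23), UNG1 (-0.28), MAG1 (-0.22) and APN2 (-0.08). For APN1 it gave the highest (0.02). The low values are thus shared by most of the 7 genes on this array and are not particular to NTG1 and NTG2. Without that array the fitted change in H3K4A was 0.18 for NTG1.

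Differences between mutants were called for 2 of the 5 tested genes. APN1 was lower in set1htz1 than in set1 (-0.95) and lower in set1htz1sir2 than in set1 (-0.91). MAG1 was higher in set1htz1sir2 than in set1 (0.55).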

How the results depend on the processing

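For the 5 tested genes, the counts called kept within 1.5 times their value except as follows. In set1 the count of 2 was 1 with set1 fitted on its own arrays, and 0 to 2 with an array left out. In set1htz1 the count of 4 was 2 to 4 with an array left out. Between set1htz1sir2 and set1 the count of 2 was 1 with quantile normalization and 1 to 3 with an array left out. Between H3K4A and set1 the count of 0 was 1 with quantile normalization and 0 to 1 with an array left out. Signs turned only for changes without a call. APN2 in set1htz1sir2 was 0.02 with median centring, 0.0017 with quantile normalization and -0.045 to 0.039 with an array left out. With an array left out, NTG2 in set1 ran from -0.094 to 0.13, MAG1 in set1 from -0.14 to 0.082, UNG1 in H3K4A from -0.19 to 0.0073, APN1 in H3K4A from -0.076 to 0.032 and MAG1 in H3K4A from -0.033 to 0.15. Likewise APN1 ran from -0.083 to 0.21 between set1htz1sir2 and set1htz1, UNG1 from -0.021 to 0.17 between set1htz1sir2 and set1, and NTG2 from -0.062 to 0.18 and MAG1 from -0.037 to 0.19 between H3K4A and set1. The causes were not tested.

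Counts over all genes moved by over 1.5 times as follows. For H3K4A the 216 calls were 136 without a dye term, 786 with quantile normalization (58.3% of them higher, against 85.6%), 41 on its own arrays and 129 without array 4. For set1 the 970 calls were 595 without array 4. Between set1htz1sir2 and set1htz1 the 651 were 408 without a dye term, 243 with quantile normalization, 344 without set1htz1 array 3, and 354 and 399 without set1htz1sir2 array 1 and array 3. Between set1htz1sir2 and set1 the 1479 were 830 with quantile normalization. Between set1htz1 and set1 the 995 were 589 with quantile normalization and 658 without set1htz1 array 3. Between H3K4A and set1 the 386 were 212 without a dye term and 246 without H3K4A array 4. Whether array numbers pair the samples was not settled. Residuals of same-numbered arrays correlated from -0.53 to 0.29, over 0.1 in 4 of 24 pairs. The best partner had the same number for 0 of 16 arrays. Same-numbered arrays share a dye orientation, and the residuals come from a fit with 1 dye term for all groups. Dye differences particular to a group can lower these correlations, so the check cannot exclude pairing. With the replicate block the calls numbered 2543 for set1htz1sir2, 2368 for set1htz1, 183 for H3K4A and 890 for set1, and the 5 tested genes kept their counts of 2, 4, 0 and 2.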
